A study of Mus musculus with 24 samples.

Results

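Astrocyte identity and reactivity genes were followed across 24 mouse brain tumours. They are 32 genes out of the 49315 counted, chosen by name and not by a cut-off on their values. Earlier results of these data were known when they were chosen. The set holds Gfap and Vim, which stand for reactivity, and 30 homeostatic genes for the functions of resting astrocytes. The tumours grew from CT-vIII, the mouse glioma line CT-2A carrying the mouse form of EGFR variant III and firefly luciferase, after 200000 cells were placed in the right hemisphere. On day 6 after implantation a pump was attached, which delivered 0.5 µl per h into the brain over 72 h until day 9. It held vehicle (2% serum albumin in saline with 100 µg of rat IgG2a), the CD40-activating antibody aCD40 (10 to 300 µg), D2C7-IT (0.2 µg), a bacterial toxin that halts protein synthesis, linked to an antibody fragment that binds EGFR and EGFRvIII, or D2C7-IT and aCD40 together. Tumours were collected when the pump came out (day 0) or 3 days later (day 3), with 3 tumours in each of the 8 groups. Every tumour thus carried the same line and underwent an infusion, and no group of brain without tumour was analysed here. The amount of aCD40 per tumour, not given in the sources used here, may vary within a group. Rat IgG2a and albumin are listed for the vehicle pumps only. Every comparison that uses vehicle may thus differ by them as well as by the agent, which cannot be told apart here.

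Astrocytes clear glutamate and potassium from around synapses, move water at the vessel wall, share ions through gap junctions and feed neurons with metabolites. After injury, infection or beside a tumour they become reactive: the intermediate filaments GFAP and vimentin accumulate, while some of the homeostatic functions can decline. Vimentin is also made by many tumour, vessel and immune cells, and GFAP is far more restricted to astrocytes in the brain.

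All 32 genes passed the filter on low counts, as did 22280 genes in all, and the lowest count of any of them in any library was 26. Libraries held 24697576 to 48119840 counts. Levels are in CPM, the counts of a gene per 1e6 counts of the TMM-scaled library, with mean ± SD over the 3 tumours of a group. The tissue was not sorted, so fewer astrocytes and less RNA per astrocyte cannot be told apart, and each value mixes astrocytes with tumour, neurons and immune cells. The libraries differed widely in Egfr, the receptor gene of which the tumour line carries a variant as a transgene. It stood at 283 to 343 CPM in 3 libraries (vehicle day 3 replicates 2 and 3, aCD40 day 3 replicate 1) and at 13.1 to 50.8 CPM in the other 21. In those 3, the summed level of 16 cell cycle genes was 1742 to 2202 CPM against 62.7 to 284, that of 10 monocyte and macrophage genes 1408 to 2741 against 123 to 754, and that of 14 neuronal genes 2784 to 4869.7 against 7654 to 14857. These 3 samples, picked after the data were seen, enter all comparisons that use day 3 vehicle or day 3 aCD40 tumours, and for these Gfap, Vim and most of the other genes described are given with and without them. Through the shared fit they also bear on the SE and p-value of all other comparisons, except in the alternative that fits only the groups compared. Counts of genes whose groups do not overlap are given only with them, since their removal leaves 1 vehicle tumour of day 3.

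The start regions of 3 genes that the results turn on are shown first: Gfap and Vim, the reactive pair, and Agt, which varied most between tumours. Each is the 250 bases before the RefSeq start on build GRCm38.p6, written 5′ to 3′ on the gene's strand, and capitals mark a TATA box (TATAAA) or a STAT-type site (TTCNNNGAA), which a search of both strands found.
Gfap (chr11:102897201-102897450, minus strand): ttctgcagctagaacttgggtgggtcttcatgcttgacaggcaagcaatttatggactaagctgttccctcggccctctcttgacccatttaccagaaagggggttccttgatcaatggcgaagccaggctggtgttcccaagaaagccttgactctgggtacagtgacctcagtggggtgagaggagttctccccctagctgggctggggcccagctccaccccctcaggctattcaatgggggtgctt
Vim (chr2:13574061-13574310, plus strand): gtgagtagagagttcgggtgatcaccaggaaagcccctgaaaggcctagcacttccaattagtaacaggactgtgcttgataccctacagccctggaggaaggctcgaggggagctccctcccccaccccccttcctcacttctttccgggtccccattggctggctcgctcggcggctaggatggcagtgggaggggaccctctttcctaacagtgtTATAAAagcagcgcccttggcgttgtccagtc
Agt (chr8:124569707-124569956, minus strand): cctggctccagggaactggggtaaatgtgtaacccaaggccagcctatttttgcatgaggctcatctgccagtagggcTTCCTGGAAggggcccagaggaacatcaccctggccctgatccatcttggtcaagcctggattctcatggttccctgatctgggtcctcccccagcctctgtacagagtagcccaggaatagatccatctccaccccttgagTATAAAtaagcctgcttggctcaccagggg
The TATA box lies 32 to 27 bases before the start of Vim and 30 to 25 before that of Agt, and the STAT-type site 172 to 164 before that of Agt. Of the 32 genes, 29 had a listed start region. They had 34 regions in all, since Kcnj16, Fgfr3 and Slc4a4 were listed with further regions. A gene was counted if any of its regions held a match, while the percentages given are shares of regions. The counts of genes therefore cannot be compared directly with these percentages. A STAT-type site was found in 6 of the 29 genes (Agt, Cxcl14, Kcnj16, Ntsr2, Pla2g7 and Slc1a3). It was found in 7.02% of all 32851 start regions of this length. A TATA box was found in 5 genes (Agt, Kcnj16, Slc1a3, Slc39a12 and Vim) and in 12.4% of all regions. The other sequences searched were the AP-1 site TGANTCA, found in Gja1 (6.75% of all regions), the SOX site ACAATG, in Lcat (10.7%), the E-box CAGCTG, in Fgfr3, Glul and Kcnj16 (13%), and the palindromic NF-I site, in 0 of 29 (0.0365%). The region of Gfap held none of the 6. The regions of Gfap and Vim lie inside the longer GENCODE models of these genes, which begin upstream of the RefSeq starts. A match describes letters only.

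Gfap (ENSMUSG00000020932, chr11:102887336-102900912 in GRCm38), the main filament of astrocytes, was at its lowest in vehicle tumours at day 0, with 1130, 889 and 425 CPM (815 ± 358, SD, n = 3). The aCD40 tumours of day 0 held 441, 523 and 1546 CPM (837 ± 616), and those given both agents 538, 1193 and 779 CPM (837 ± 331). These 3 groups overlapped. The D2C7-IT tumours of day 0 held 2244, 1319.7 and 1737 CPM (1767 ± 463), each above every vehicle and combination tumour of that day. One aCD40 tumour, at 1546 CPM, lay within the D2C7-IT range.

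At day 3 the 4 groups stood closer together for Gfap. Vehicle tumours held 791, 1269 and 1198 CPM (1086 ± 258), of which the last pair have high Egfr, and aCD40 tumours 918, 1367 and 885 CPM (1057 ± 269), of which the first has. D2C7-IT tumours held 1528, 1551 and 1494 CPM (1524 ± 29.0). Combination tumours held 1576, 1636 and 1828 CPM (1680.1 ± 132), above all other day 3 tumours. Both groups given D2C7-IT thus lay above vehicle and aCD40 at day 3 with no overlap. Ordered by mean, Gfap ran from D2C7-IT at day 0 through the combination, D2C7-IT, vehicle and aCD40 at day 3 to the other 3 groups of day 0. Neighbours in that order overlapped, except combination and D2C7-IT at day 3 and D2C7-IT and vehicle at day 3.

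Vim (ENSMUSG00000026728, chr2:13573927-13582826) was spread far more widely, from 64.7 to 2031 CPM. Day 0 tumours held 298, 101 and 64.7 CPM with vehicle, 88.9, 126 and 515 with aCD40, 235, 280.3 and 359.7 with D2C7-IT and 82.5, 219 and 126 with the combination. Day 3 tumours held 80.1, 1824 and 1833 CPM with vehicle, 2031, 185 and 119 with aCD40, 655, 378 and 393 with D2C7-IT and 160.2, 415 and 333 with the combination. The 3 values from 1824 to 2031 CPM are those of the high-Egfr libraries, and the other 21 ended at 655 CPM. Gfap behaved otherwise in those 3 libraries, at 918 to 1269 CPM within the 425 to 2244 of the rest. Gfap exceeded Vim by 1.22 to 3.30 on the log2 CPM scale in the other 21, and Vim exceeded Gfap in the 3.

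**Figure D1:**
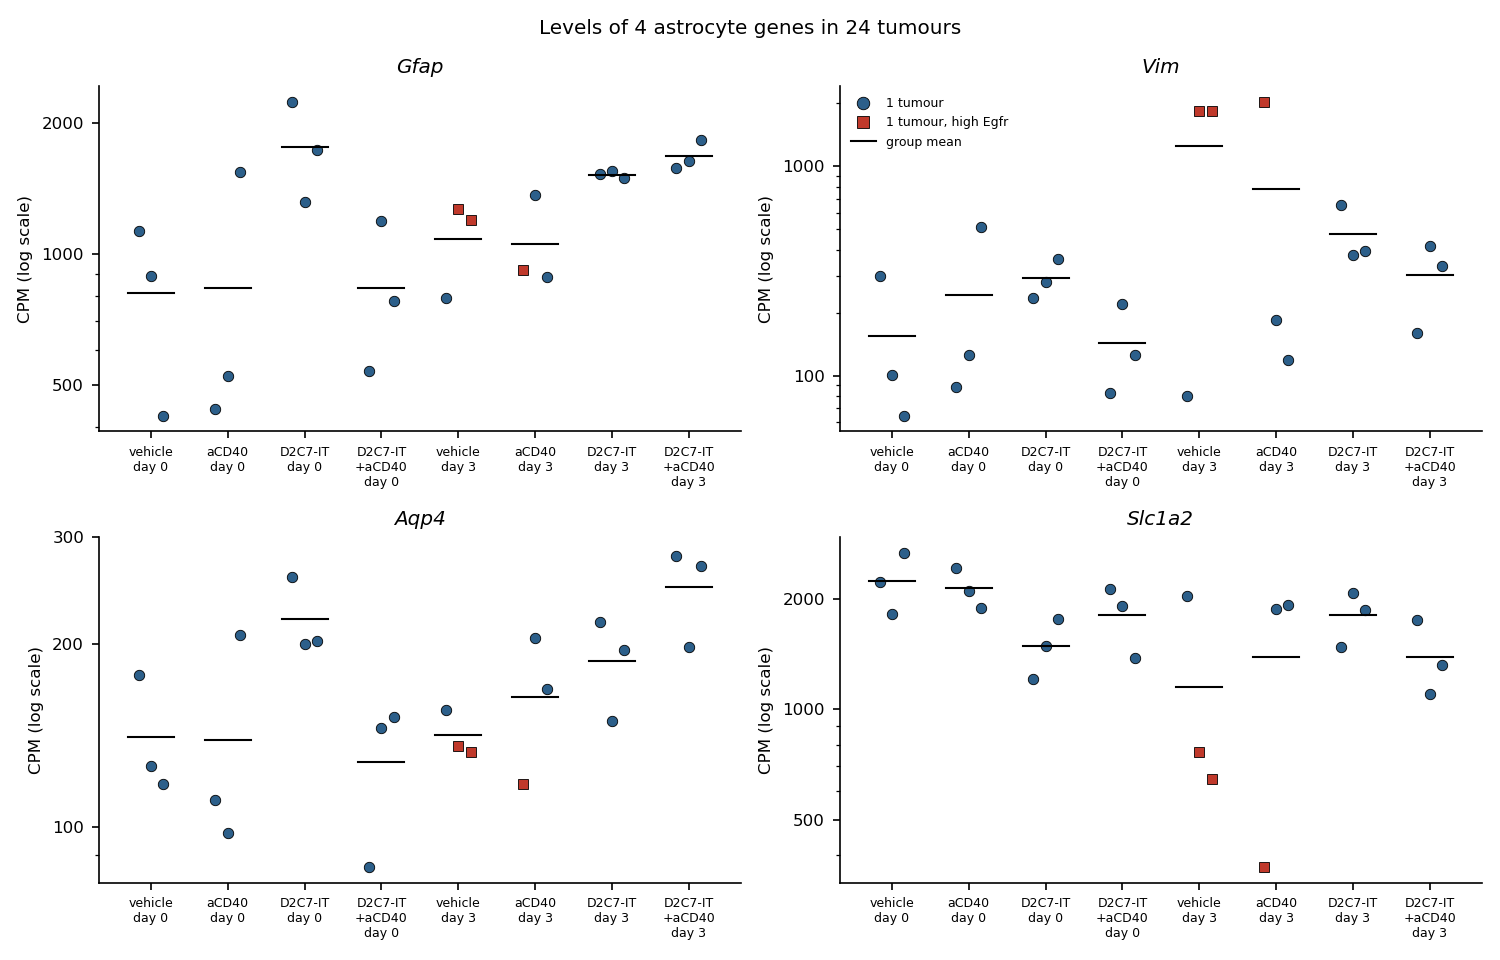
Levels of Gfap, Vim, the water channel gene Aqp4 and the glutamate transporter gene Slc1a2 in each tumour by treatment and day (CPM, log scale), with group means as lines and the 3 high-Egfr libraries as squares. Gfap in D2C7-IT tumours at day 0 (1319.7 to 2244 CPM) lies above vehicle, and the squares are highest for Vim and lowest for Slc1a2.

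The 30 homeostatic genes are given by function. Many of the lowest group means below belong to vehicle at day 3, a group that holds high-Egfr libraries. Of the genes of glutamate uptake and recycling, Slc1a2, the main glutamate transporter of the forebrain, held 2223, 1814 and 2662 CPM in vehicle tumours at day 0 and 1211, 1485 and 1761 CPM in D2C7-IT tumours. Glul, which makes glutamine from glutamate, held 1499, 1550 and 1814 against 1088, 956 and 1217 CPM in the same groups. In both genes every D2C7-IT tumour lay below every vehicle tumour. Slc1a3, a second glutamate transporter, went the other way by a small margin, with 535, 528 and 539 CPM in vehicle and 559, 616 and 636 in D2C7-IT tumours.

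Genes of water and ion handling differed among themselves. Aqp4, the water channel of astrocyte end feet, had a pattern like that of Gfap: 178, 126 and 118 CPM in vehicle tumours at day 0, 258, 200.1 and 203 with D2C7-IT, 86.0, 146 and 152 with both agents, and 279.6, 198 and 269 with both agents at day 3. D2C7-IT lay above vehicle and above the combination at day 0 with no overlap. The other genes of this kind had narrower group means: Mlc1, a membrane protein that with others regulates cell volume, ran from 124 to 194 CPM, the potassium channel gene Kcnj10 from 199 to 326, its partner Kcnj16 from 18.3 to 29.9, and the bicarbonate cotransporter gene Slc4a4 from 129.6 to 191 CPM. Each of these 4 had its lowest mean in vehicle at day 3, a group that holds high-Egfr libraries. Without those, which leaves 1 vehicle tumour of day 3, the log2 difference from vehicle at day 0 was 0.03 for Mlc1 and -0.0 for Kcnj10. It was 0.14 for Kcnj16 and 0.39 for Slc4a4.

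The gap junction genes Gja1 and Gjb6 had group means of 139 to 174 and of 28.1 to 71.2 CPM. Among regulators and receptors, the glial transcription factor gene Sox9 ran from 35.7 CPM in vehicle at day 0 to 55.5 in D2C7-IT at day 3, the growth factor receptor gene Fgfr3 from 63.8 to 134 and the neurotensin receptor gene Ntsr2 from 60.6 to 97.9 CPM. Among transporters of transmitters and amino acids, Slc6a11, for GABA, ran from 125 to 282 CPM and Slc7a10, for serine and other small amino acids, from 25.0 to 36.2 CPM.

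Among the enzymes, Cbs, which makes cystathionine from homocysteine, held 28.1, 32 and 37.8 CPM in vehicle and 24.3, 20.4 and 22.0 in D2C7-IT tumours at day 0, without overlap. Its group means ran from 11.5 in vehicle at day 3 to 35.8 CPM. The folate enzyme gene Aldh1l1, used widely as a pan-astrocyte marker, ran from 52.5 to 89.2 CPM, the glycine cleavage gene Gldc from 13 to 32.3, the glycogen-related kinase gene Phkg1 from 15.7 to 25.5 and the zinc transporter gene Slc39a12 from 20.5 to 37.3 CPM. Phkg1 and Slc7a10 share 630 and 377 exon bases with Sumf2 and Lrp3 on the other strand, which these libraries cannot separate.

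Itih3, a chain of the inter-alpha-trypsin inhibitor family that binds hyaluronan, ran from 34.1 to 88.1 CPM in group means and Agt, the angiotensin precursor, from 15.0 to 93.1. Among other secreted proteins, Clu (clusterin) ran from 537 to 1049.9 CPM in group means, the chemokine gene Cxcl14 from 63.6 to 109, the protease gene Htra1 from 74.4 to 170.3, Pla2g7, a lipoprotein-associated phospholipase, from 74.1 to 121 and Lcat, which esterifies cholesterol, from 17.7 to 20.8 CPM. Htra1 held 159, 149.6 and 159 CPM in vehicle and 117, 107 and 109 in D2C7-IT tumours at day 0. Of matrix and surface genes, the proteoglycan gene Bcan held 262, 350.3 and 318 against 183, 162 and 172 CPM in those groups, again apart. The phosphatase gene Ptprz1 ran from 118 to 217 CPM and S100b, a calcium-binding protein, from 84.5 to 105 CPM.

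Compared between genes per kb of exon, the median level over the 24 tumours was highest for Glul (371 CPM per kb), Gfap (293), Clu (265) and Slc1a2 (140). Vim stood ninth at 54.4 and Aqp4 at 26.1, and the lowest were Gldc (3.88), Cbs (3.87) and Phkg1 (3.42). The ratio of the highest to the lowest tumour in the 21 libraries had a median of 2.74 over the homeostatic genes. It was above 10 in 1 of them, Agt.

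**Figure D2:**
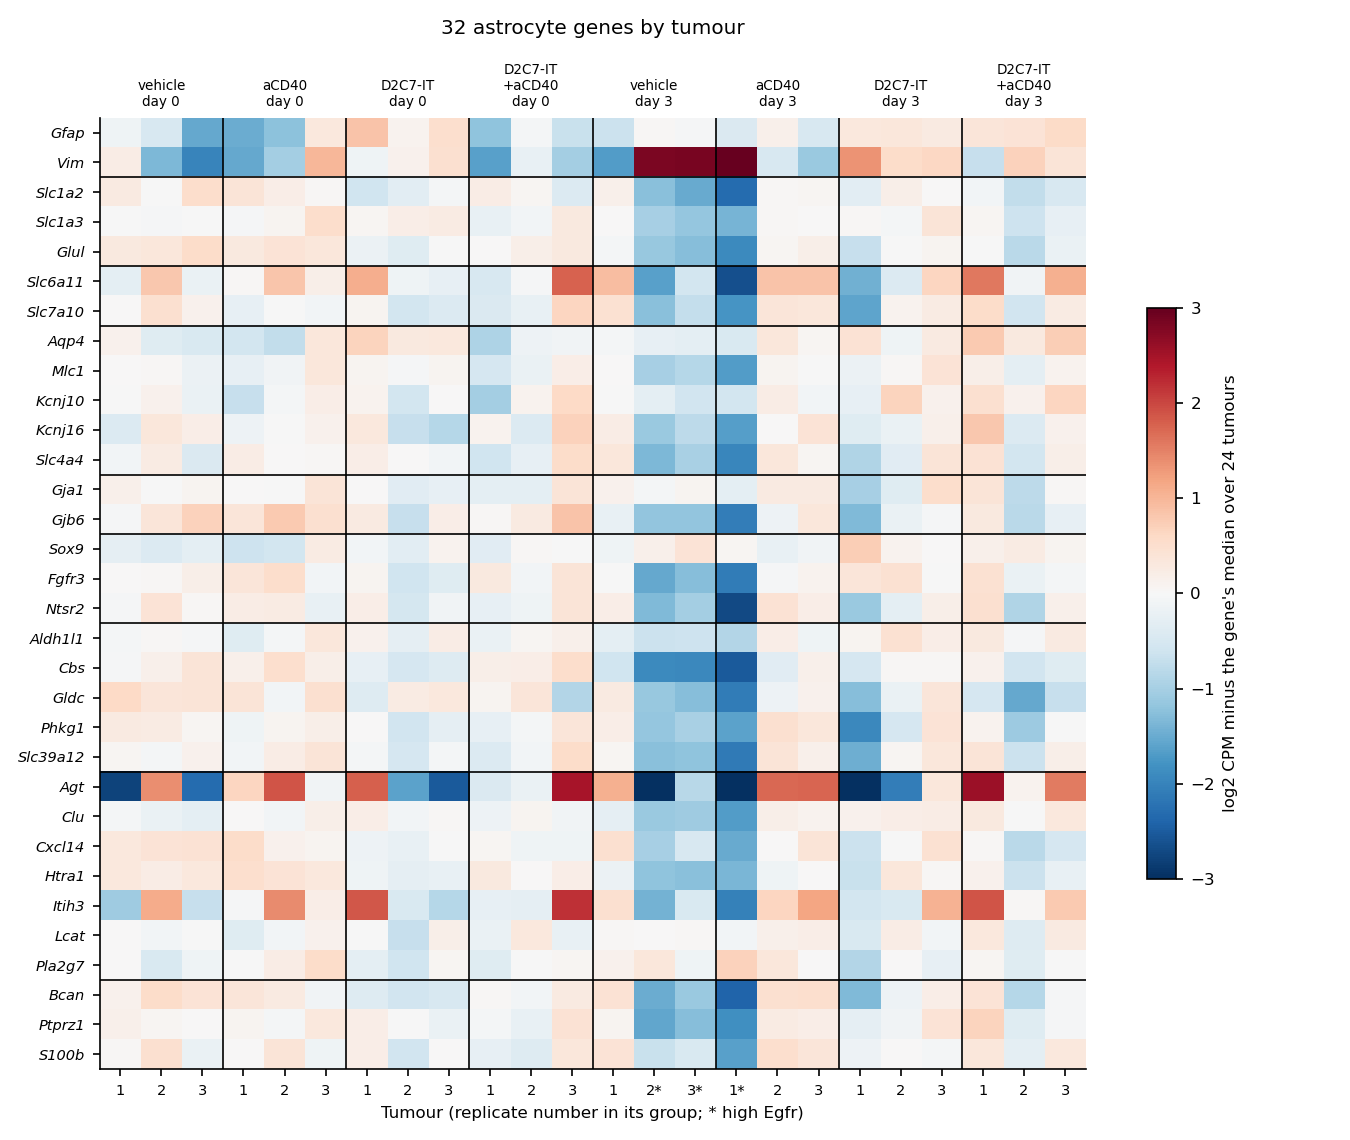
Level of each of the 32 genes (rows, grouped by function) in each tumour (columns) as log2 CPM minus the gene's own median, with colours ending at -3 and 3. Vim is high and most homeostatic genes low in the 3 starred high-Egfr columns, and Agt, Itih3 and Slc6a11 vary between tumours of the same group.

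D2C7-IT against vehicle at day 0 compares tumours of these infusions at the time the pump came out. Of the 32 genes, edgeR called 0 at an adjusted p under 0.05, where 0.0808% of all genes tested were called. DESeq2 also called 0. At an unadjusted p under 0.05 there were 2, Gfap and Aqp4, both higher, or 6.25% of the genes against 4.52% of all genes tested (3.61% higher). Gfap was higher by 1.12 ± 0.43 (log2, SE; edgeR adjusted p = 0.86) and Aqp4 by 0.65 ± 0.28 (adjusted p = 1), while Vim differed by 0.92 ± 1.00 (adjusted p = 1). Over alternative settings the adjusted p of Gfap ran from 0.35 to 1 and its log2 difference from 0.81 to 1.43.

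The homeostatic genes leaned the other way. Of the 30, 10 were higher and 20 lower, with a median log2 difference of -0.23, against -0.01 over all genes tested. Without D2C7-IT replicate 2 this median was -0.06, and without replicate 1 it was -0.38. The lowest values were those of Bcan (-0.85 ± 0.57), Slc1a2 (-0.59 ± 0.47) and Glul (-0.58 ± 0.40), each with adjusted p = 1. The D2C7-IT tumours lay wholly above vehicle in 3 of the 32 genes (Gfap, Slc1a3 and Aqp4), or 9.38%, against 11% of all genes tested. They lay wholly below it in 9 (Slc1a2, Glul, Cbs, Gldc, Phkg1, Slc39a12, Cxcl14, Htra1 and Bcan), or 28.1%, against 6.60% of all genes. With libraries scaled by total counts the second count was 6, or 18.8% against 3.99%, without Gldc, Phkg1 and Slc39a12.

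Gfap minus the median homeostatic gene, both in log2 CPM, was 4.26 to 4.32 in the 3 D2C7-IT tumours of day 0 and 2.07 to 3.51 in vehicle, 2.04 to 3.97 in aCD40 and 2.43 to 3.78 in combination tumours. D2C7-IT did not overlap with any other day 0 group in this difference. Markers of other cells differed as well: 10 of 10 monocyte and macrophage genes were higher, with a summed level of 376 to 709.6 CPM against 123 to 401 in vehicle and 0 of them without a count. The 16 cell cycle genes were all higher, summing to 177 to 226 against 65.8 to 262 CPM, and Egfr stood at 27.4 to 46.7 against 16.1 to 50.8 CPM. The 14 neuronal genes summed to 8360.3 to 11695 against 9537 to 14857 CPM. Their 4 genes of smallest p were all lower, from -0.65 ± 0.81 (Slc17a7) to -0.32 ± 0.45 (Syt1, log2, SE). The sums of monocyte, cell cycle and neuronal genes and Egfr overlapped with vehicle. Of 12 endothelial genes 10 were higher, with 1 called by edgeR (Vwf, von Willebrand factor, 1.55 ± 0.23, adjusted p = 0.021), 8 at an unadjusted p under 0.05 and sums of 449.9 to 507 against 313 to 372 CPM, which did not overlap. aCD40 and combination tumours of day 0, at 475 to 578 and 443 to 525 CPM, also lay above vehicle in that sum. The part of these markers in the result was not tested.

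**Figure D3:**
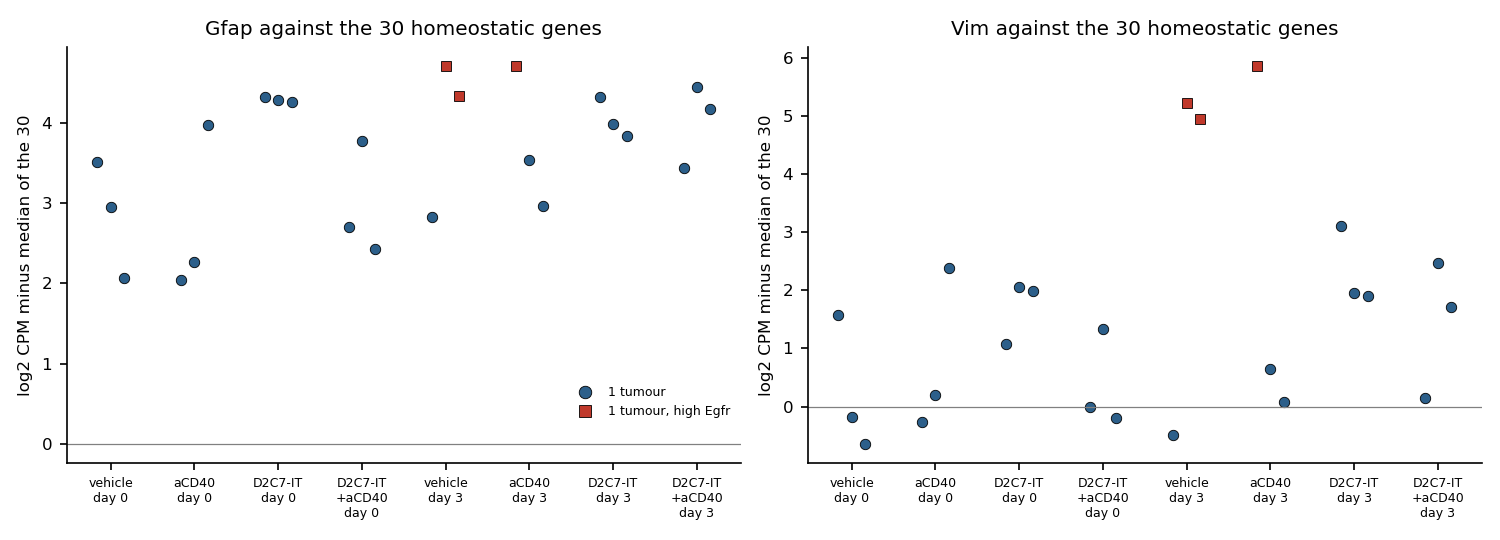
Gfap (left) and Vim (right) minus the median of the 30 homeostatic genes in each tumour (log2 CPM), by treatment and day, with the 3 high-Egfr libraries as squares. The D2C7-IT tumours of day 0 sit at 4.26 to 4.32 for Gfap, above the other day 0 groups, and the squares at 4.95 to 5.86 for Vim, above all others.

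With aCD40 alone at day 0, the 2 reactive genes overlapped with vehicle and no gene passed the test. edgeR called 0 of 32, with 0 at an unadjusted p under 0.05 and 0 by DESeq2, where 0.0% of all genes were called and 1.36% had an unadjusted p under 0.05. Gfap differed by 0.04 ± 0.42 and Vim by 0.65 ± 1.00 (log2, SE; adjusted p = 1 for both), and 17 homeostatic genes were higher and 13 lower, with a median of 0.05. The widest values were those of Agt (1.06 ± 1.52), Itih3 (0.57 ± 0.91), Slc7a10 (-0.33 ± 0.53), Bcan (-0.18 ± 0.56) and Gldc (-0.18 ± 0.51). Htra1 was the only gene with all aCD40 tumours above vehicle (3.12% of the 32, against 3.99% of all genes) and Slc7a10 the only one with all below it (3.12%, against 3.47%). One aCD40 tumour, replicate 3, held 1546 CPM of Gfap and 515 of Vim, and without it Gfap differed by -0.76 and Vim by -0.53.

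With the combination at day 0, Gfap and Vim also overlapped with vehicle. edgeR called 0 of 32, with 0 at an unadjusted p under 0.05 (3.03% of all genes, 1.86% higher and 1.17% lower) and 0 by DESeq2, where edgeR called 0.0% of all genes. Gfap differed by 0.04 ± 0.42 and Vim by -0.12 ± 1.00, and 17 homeostatic genes were higher and 13 lower, with a median of 0.02. Agt (1.27 ± 1.53), Itih3 (0.95 ± 0.92) and Slc6a11 (0.58 ± 0.81) had the highest values and Gldc (-0.51 ± 0.51), Cxcl14 (-0.44 ± 0.39) and Slc1a2 (-0.31 ± 0.46) the lowest. Only Cxcl14 had every combination tumour below every vehicle tumour (86.9, 76.7 and 76.5 against 103, 111 and 112 CPM), where 4.02% of all genes did, and 0 genes lay wholly above it, against 5.45%.

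Set against D2C7-IT alone at day 0, the combination had lower values of Gfap by 1.08 ± 0.43 (log2, SE; edgeR adjusted p = 1), of Aqp4 by 0.78 ± 0.28 (adjusted p = 1) and of Vim by 1.03 ± 1.01 (adjusted p = 1). edgeR called 0 of 32 and DESeq2 0, where edgeR called 0.0% of all genes. Gfap and Aqp4 were the only 2 at an unadjusted p under 0.05, against 2.77% of all genes (1.60% lower and 1.17% higher). Gfap, Vim and Aqp4 lay wholly below D2C7-IT (9.38%, against 8.53% of all genes), and Glul, Cbs, Htra1 and Bcan wholly above it (12.5%, against 6.07%). With total-count scaling Glul left the second set, making it 9.38% against 4.23%. Of the homeostatic genes 22 were higher and 8 lower, with a median of 0.16, which was -0.06 without combination replicate 3, and the highest values in Agt (0.85 ± 1.52), Cbs (0.69 ± 0.44) and Bcan (0.56 ± 0.57). All 16 cell cycle genes were lower too, at 81.4 to 148 against 177 to 226 CPM summed, as were 9 of 10 monocyte genes, at 199 to 360.2 against 376 to 709.6 CPM, and Egfr, at 15.1 to 23.7 against 27.4 to 46.7 CPM. The 14 neuronal genes summed to 7654 to 14628 against 8360.3 to 11695 CPM, which overlapped. The part of these markers in the result was not tested.

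Whether the combination departed from additivity, its log2 effect minus the effects of aCD40 and of D2C7-IT, was tested directly. At day 0 edgeR called 0 of 32, with 0 at an unadjusted p under 0.05 and 0 by DESeq2 (0.0% and 1.62% of all genes by edgeR). The departure was -1.12 ± 0.60 for Gfap, -0.77 ± 0.40 for Aqp4 and -1.69 ± 1.42 for Vim, with adjusted p = 1 for each by edgeR. Over the homeostatic genes its median was 0.16, and its highest values were those of Bcan (0.74 ± 0.80), Slc7a10 (0.68 ± 0.74) and Kcnj16 (0.59 ± 0.65). Without aCD40 replicate 3 the departure of Gfap was -0.32. Against aCD40 alone at day 0 the combination differed by 0.00 ± 0.42 for Gfap and -0.77 ± 1.00 for Vim, with 0 of 32 called by edgeR or DESeq2 and 0 at an unadjusted p under 0.05 (0.0% and 0.884% of all genes by edgeR, 0.516% higher). The widest values were those of Slc6a11 (0.38 ± 0.80), Itih3 (0.38 ± 0.91), Agt (0.22 ± 1.51), Pla2g7 (-0.37 ± 0.24) and Gldc (-0.33 ± 0.51). Its tumours lay wholly below aCD40 in Glul, Cxcl14 and Htra1 (9.38%, against 1.92% of all genes) and wholly above it in 0 (2.67%). With total-count scaling Glul left that set.

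**Figure D4:**
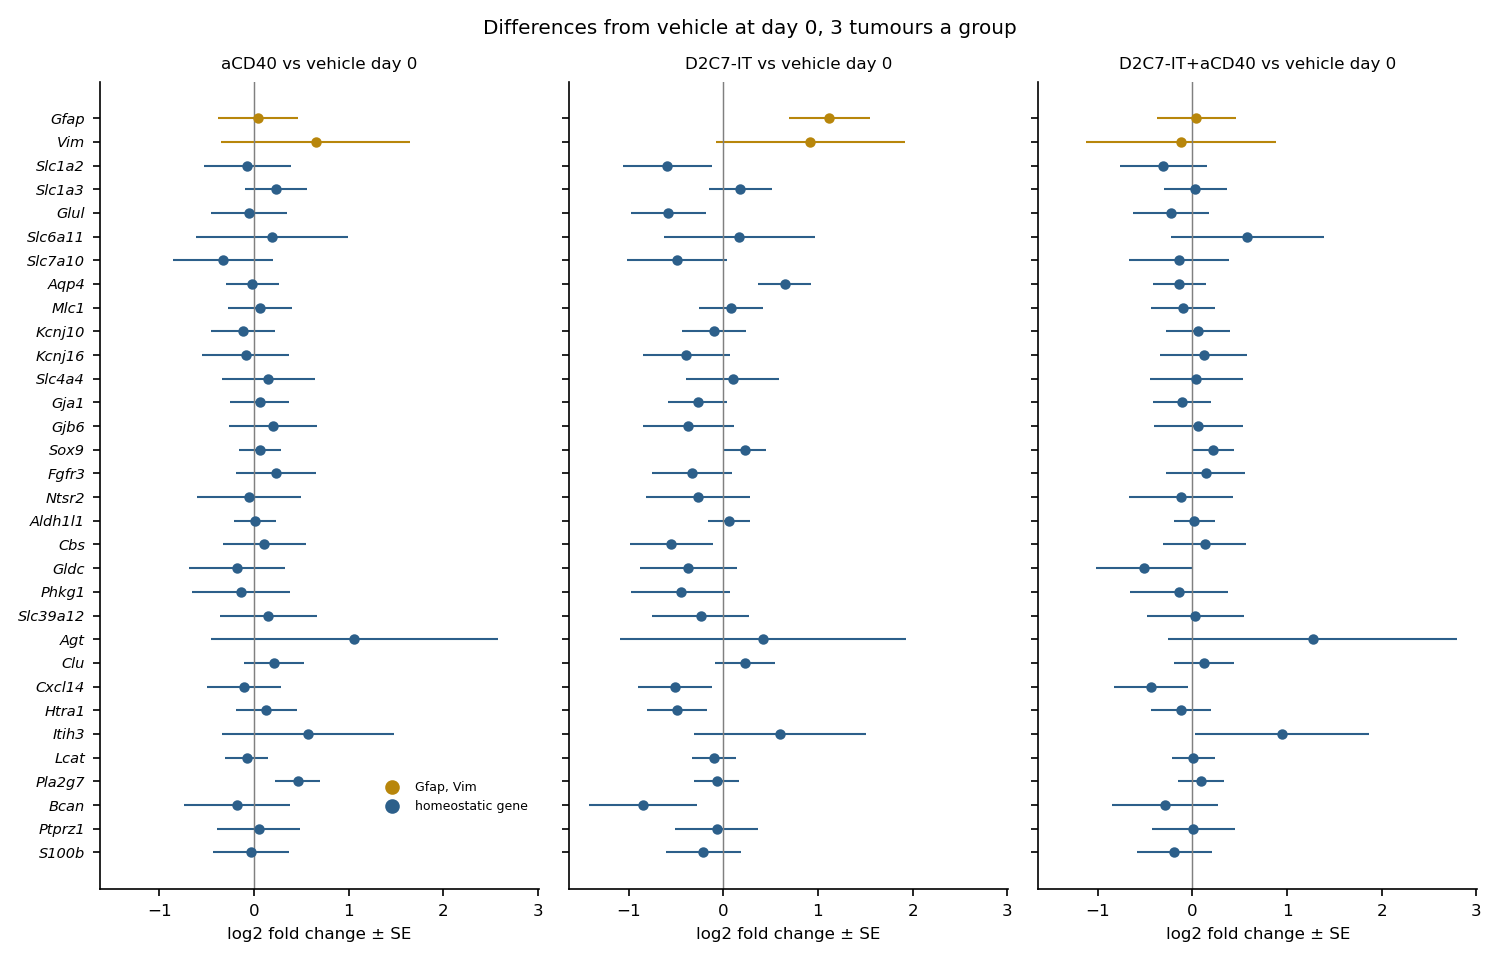
Log2 difference from vehicle at day 0 ± SE for each of the 32 genes with aCD40, D2C7-IT or both (3 tumours a group, edgeR). Under D2C7-IT, Gfap (1.12) and Aqp4 (0.65) stand to the right and Bcan (-0.85), Slc1a2 (-0.59) and Glul (-0.58) to the left, and no gene passed the adjusted threshold.

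At day 3, the comparisons with vehicle turn on 2 of its 3 tumours. Vehicle tumours held 2037, 765 and 645 CPM of Slc1a2, 1188, 563 and 509 of Glul and 756, 423 and 433 of Clu, and in each gene the last pair are the high-Egfr libraries. Of the 30 homeostatic genes, 11 were lower in the 3 high-Egfr libraries than in every one of the other 21 (Slc1a2, Slc1a3, Glul, Mlc1, Slc4a4, Fgfr3, Aldh1l1, Cbs, Clu, Htra1 and Ptprz1), and 0 were higher in all 3. The median homeostatic gene was at 5.13 to 5.89 log2 CPM in the 3 and at 6.07 to 7.18 in the 21. These ranges describe libraries picked from the data and carry no test.

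D2C7-IT against vehicle at day 3 gave 0 of 32 genes called by edgeR (0.0% of all genes). At an unadjusted p under 0.05 there were 6, all higher (18.8% of the 32, against 9.96% of all genes higher and 28.2% in either direction). DESeq2 called 3, all higher (Aldh1l1, Clu and Cbs), or 9.38%. Of all genes that it tested, DESeq2 called 3.95% higher and 13.1% in either direction. Cbs was higher by 1.22 ± 0.45 (adjusted p = 0.10), Fgfr3 by 1.07 ± 0.43 (0.12), Clu by 0.95 ± 0.32 (0.089) and Aldh1l1 by 0.76 ± 0.22 (0.08) in edgeR, while Gfap differed by 0.49 ± 0.42 (0.45) and Vim by -1.39 ± 1.01 (0.37). Of the homeostatic genes 25 were higher and 5 lower, with a median of 0.35 and the lowest values in Agt (-0.74 ± 1.52) and Pla2g7 (-0.46 ± 0.24). Gfap, Fgfr3, Aldh1l1, Cbs and Clu lay wholly above vehicle (15.6%, against 7.43% of all genes) and 0 wholly below (5.78%). Without the 3 high-Egfr libraries, which leaves 1 vehicle tumour whose spread is taken from the other groups, the median was -0.19, Gfap differed by 0.96, Vim by 2.58, Cbs by 0.50, Fgfr3 by 0.31, Clu by 0.47 and Aldh1l1 by 0.56, and edgeR called 0. Without vehicle replicate 1, the tumour of low Egfr, edgeR called 9 genes, all higher, or 28.1% against 35.7% of all genes (15.4% higher).

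The combination against vehicle at day 3 also had homeostatic genes mostly above vehicle. edgeR called 0 of 32 (0.0404% of all genes). At an unadjusted p under 0.05 there were 4, all higher (12.5%, against 7.09% of all genes higher and 24% in either direction). DESeq2 called Aldh1l1 and Clu, both higher (6.25%). Of all genes that it tested, DESeq2 called 2.23% higher and 7.69% in either direction. Aqp4 was higher by 0.81 ± 0.28 (edgeR adjusted p = 0.12), Clu by 0.97 ± 0.32 (0.11), Aldh1l1 by 0.69 ± 0.22 (0.11) and Cbs by 1.10 ± 0.45 (0.15), while Gfap differed by 0.63 ± 0.42 (0.36) and Vim by -2.04 ± 1.03 (0.23). The median of the homeostatic genes was 0.56, with 26 higher and 4 lower and the widest values in Agt (1.89 ± 1.56), Itih3 (1.37 ± 0.93), Gldc (-0.32 ± 0.52) and Pla2g7 (-0.21 ± 0.24). Gfap, Aqp4, Kcnj10, Aldh1l1, Cbs and Clu lay wholly above vehicle (18.8%, against 8.06% of all genes) and 0 wholly below (7.45%). Without the 3 libraries the median was 0.02, Gfap differed by 1.12, Vim by 1.95, Aqp4 by 0.70, Clu by 0.50, Aldh1l1 by 0.50 and Cbs by 0.38, and edgeR called 0. Without vehicle replicate 1 it called 7 higher and 1, Vim, lower, where 11.9% of all genes were called higher and 18.3% lower.

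In both comparisons the 16 cell cycle genes were all lower than vehicle at an unadjusted p under 0.05, with median log2 differences of -3.46 with D2C7-IT and -3.27 with the combination, and Egfr was lower by 3.16 and 3.39. Their part in the results was not tested. Removing the 3 libraries turned the difference of Vim from negative to positive in both, and left that of Gfap positive. Combination and D2C7-IT tumours, which hold no high-Egfr library, differed at day 3 by 0.14 ± 0.42 for Gfap and -0.65 ± 1.00 for Vim, with 0 of 32 called by edgeR or DESeq2, 0 at an unadjusted p under 0.05 (0.0% and 2.44% of all genes by edgeR) and 1, Gfap, wholly above (3.12%, against 6.27%). The widest values were those of Agt (2.63 ± 1.60), Slc6a11 (1.17 ± 0.81), Itih3 (0.90 ± 0.92), Gldc (-0.63 ± 0.52) and Cxcl14 (-0.39 ± 0.39). At day 3 the departure from additivity was 0.18 ± 0.60 for Gfap, 0.03 ± 1.41 for Vim and widest for Agt (1.31 ± 2.14), Slc6a11 (0.79 ± 1.14), Cbs (-0.93 ± 0.63), Gldc (-0.74 ± 0.73) and Slc1a3 (-0.67 ± 0.46), with 0 of 32 called by either tool and 0 at an unadjusted p under 0.05 (0.0% and 1.13% of all genes by edgeR). Without the 3 libraries it was -0.38 for Gfap and -1.58 for Vim.

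aCD40 against vehicle at day 3, where both groups hold high-Egfr libraries, gave 0 of 32 called by edgeR or DESeq2 and 0 at an unadjusted p under 0.05 (0.0% and 1.91% of all genes by edgeR). Gfap differed by -0.04 ± 0.42 and Vim by -0.68 ± 1.00, 29 of 30 homeostatic genes had positive values with a median of 0.30, widest in Agt (1.32 ± 1.53), Cbs (0.80 ± 0.44), Itih3 (0.71 ± 0.92) and Sox9 (-0.25 ± 0.22), and 0 genes lay wholly above or below (1.58% and 1.13% of all genes). Without the 3 libraries the median was 0.12, and Gfap, Vim, Cbs and Sox9 differed by 0.53, 0.95, 0.54 and -0.02. Without aCD40 replicate 1 alone, edgeR called Clu and Cbs higher (6.25%, against 0.359% of all genes called higher and 5.62% lower). The combination against aCD40 at day 3 gave 0 called by edgeR or DESeq2 and 1, Aqp4, at an unadjusted p under 0.05 (3.12%, with 11.1% of all genes, where edgeR called 0.0%), with a difference of 0.42 without the 3 libraries. Gfap was at 1576 to 1828 against 885 to 1367 CPM, a log2 difference of 0.67 ± 0.42 (adjusted p = 0.54) and 0.58 without the 3 libraries. Vim differed by -1.36 ± 1.01, Slc6a11 by 0.68 ± 0.81, Itih3 by 0.66 ± 0.91, Pla2g7 by -0.46 ± 0.24 and Gldc by -0.42 ± 0.52. Without the 3 libraries these 5 differed by 1.01, 0.15, 0.16, -0.26 and -0.85. The homeostatic median was 0.21, and -0.16 without the 3 libraries. Gfap and Sox9 lay wholly above aCD40 (6.25%, against 4.97% of all genes).

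Day 3 was set against day 0 within each treatment. With vehicle, edgeR called 0 of 32 (0.0% of all genes) and DESeq2 4 (Vim higher; Glul, Htra1 and Cbs lower), or 12.5% against 12.2% of all genes that DESeq2 tested, and 7 had an unadjusted p under 0.05 (21.9%, against 30.2% of all genes). Vim was higher at day 3 by 3.01 ± 1.07 (edgeR adjusted p = 0.11) and Sox9 by 0.48 ± 0.22 (0.15), and Cbs (-1.51 ± 0.45), Gjb6 (-1.15 ± 0.48), Glul (-1.11 ± 0.40) and Htra1 (-1.07 ± 0.32) were lower, with adjusted p of 0.11 to 0.13. Gfap differed by 0.42 ± 0.42. The homeostatic genes were 4 higher and 26 lower, with a median of -0.56, and 7 genes lay wholly below day 0 (21.9%, against 6.65% of all genes). Sox9 and Lcat lay wholly above it (6.25%, against 6.49%). Without the high-Egfr libraries the median was 0.03, Gfap differed by -0.05, Vim by -0.96, Sox9 by 0.19, Cbs by -0.77, Gjb6 by -0.58, Glul by -0.46 and Htra1 by -0.46. Without vehicle day 3 replicate 1 edgeR called Vim higher and 12 genes lower, 40.6% of the 32 against 41.1% of all genes (17.1% lower).

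With the combination neither group holds a high-Egfr library, though SE and p come from the fit of all 24 libraries. Gfap was higher at day 3 than at day 0 by 1.01 ± 0.43 (edgeR adjusted p = 0.98) and Aqp4 by 0.96 ± 0.29 (adjusted p = 0.55), while Vim differed by 1.09 ± 1.01. The 3 tumours of day 3 lay wholly above those of day 0 in Gfap (1576 to 1828 against 538 to 1193 CPM), Aqp4 (198 to 279.6 against 86.0 to 152 CPM) and Sox9 (47.2 to 52.9 against 35.1 to 45.6 CPM), which is 9.38% of the genes against 7.07% of all. They lay wholly below in Glul and Cbs (6.25%, against 6.49%). With total-count scaling Clu joined the first set (12.5%, against 8.33%) and the second held 0 genes (4.11% of all). edgeR and DESeq2 called 0 of 32 (0.0% of all genes by edgeR), and 2 had an unadjusted p under 0.05 (6.25%, against 4.66%). The homeostatic median was 0.02, with the lowest values in Gldc (-0.80 ± 0.52), Gjb6 (-0.60 ± 0.48) and Cbs (-0.54 ± 0.44). Markers of other cells differed too: 16 of 16 cell cycle genes, 10 of 10 T cell genes, 9 of 10 monocyte and macrophage genes and 11 of 12 pericyte and fibroblast genes were higher at day 3, with 0 called by edgeR and 4 of the pericyte and fibroblast genes at an unadjusted p under 0.05. The sums did not overlap for T cell genes (31.0 to 45.2 against 6.95 to 23.3 CPM) and pericyte and fibroblast genes (327 to 385 against 242 to 277 CPM). The part of these markers in the result was not tested.

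With D2C7-IT, Gfap differed by -0.21 ± 0.42 and Vim by 0.70 ± 1.00 between day 3 and day 0, with a homeostatic median of 0.04, 0 genes called by edgeR or DESeq2 and 0 at an unadjusted p under 0.05 (0.00449% and 3.51% of all genes by edgeR). Fgfr3 (0.55 ± 0.42), Sox9 (0.41 ± 0.22), Agt (-1.30 ± 1.53), Slc6a11 (-0.54 ± 0.81) and Itih3 (-0.51 ± 0.91) had the widest values. Vim was the only gene wholly above day 0 (3.12%, against 4.96% of all genes), and 0 lay wholly below (6.36%). With aCD40, Gfap differed by 0.34 ± 0.42, Vim by 1.68 ± 1.02, Aqp4 by 0.24 ± 0.28, Gjb6 by -0.88 ± 0.48, Cbs by -0.81 ± 0.44 and Htra1 by -0.79 ± 0.32 (adjusted p = 0.42), with a homeostatic median of -0.26, 0 called by edgeR or DESeq2 and 1, Htra1, at an unadjusted p under 0.05 (0.0583% and 11.6% of all genes by edgeR). Glul, Gjb6 and Htra1 lay wholly below day 0 with aCD40 (9.38%, against 5.81% of all genes), and 0 wholly above (5.05%). With total-count scaling Slc1a2 took the place of Gjb6 (9.38%, against 5.64%). Without the high-Egfr library the aCD40 median was 0.11, Gfap differed by 0.43, Vim by -0.68, Aqp4 by 0.43, Gjb6 by -0.44, Cbs by -0.35 and Htra1 by -0.46.

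Whether an effect against vehicle differed between the days was tested as an interaction. edgeR and DESeq2 called 0 of 32 for aCD40, for D2C7-IT and for the combination, where edgeR called 0.0% of all genes in each. At an unadjusted p under 0.05 there were 0, 4 and 2 genes, against 1.22%, 17.6% and 8.05% of all genes. The 4 and the 2 were all higher, against 5.38% and 2.21% of all genes higher. For D2C7-IT the effect at day 3 minus that at day 0 was -0.63 ± 0.60 for Gfap, -2.31 ± 1.43 for Vim, 1.78 ± 0.63 for Cbs and 1.40 ± 0.60 for Fgfr3, with adjusted p of 0.28 to 0.55. For the combination it was 0.59 ± 0.60 for Gfap, -1.92 ± 1.42 for Vim and 0.95 ± 0.40 for Aqp4, and for aCD40 it was -0.08 ± 0.60 for Gfap and -1.33 ± 1.41 for Vim. All of these rest on vehicle at day 3, and without its replicate 1 edgeR called 4 genes higher for D2C7-IT (Slc1a2, Fgfr3, Htra1 and Cbs), or 12.5%. Of all genes it called 5.67% higher and 16.1% in either direction. Without the high-Egfr libraries the values of Gfap and Vim were -0.16 and 1.66 for D2C7-IT (Cbs 1.04, Fgfr3 0.64), 1.08 and 2.08 for the combination (Aqp4 0.84) and 0.48 and 0.29 for aCD40.

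Other genes of astrocyte reactivity come from lists of genes known to be induced in most reactive astrocytes (pan-reactive, 11 genes), after systemic inflammation (A1-type, 11) or after ischaemia (A2-type, 12), and from 20 further astrocyte genes. The tissue was not sorted, so which cells held the RNA of these lists was not tested. With D2C7-IT at day 0, 11 of 11 pan-reactive genes were higher than vehicle, with a median log2 difference of 2.56, and edgeR called 2 of them, where it called 0.0808% of all genes. Steap4, a metalloreductase, rose from 0.865 ± 0.503 to 134 ± 5.95 CPM (log2 7.23 ± 1.16, adjusted p = 0.031), and Osmr, the oncostatin M receptor, rose from 10.1 ± 3.11 to 45.0 ± 6.61 CPM (2.15 ± 0.40, adjusted p = 0.046). Cp, the iron-oxidising ceruloplasmin, differed by 3.13 ± 0.61 (0.068), and Lcn2, the iron-carrier-binding lipocalin, by 4.13 ± 1.09 (0.30). DESeq2 called 5 of 11, and 133 genes among all that it tested. With any 1 of the 6 tumours left out edgeR called 0, with adjusted p of 0.053 to 0.31 for Steap4 and 0.10 to 0.42 for Osmr and log2 differences of 7.0 to 7.84 and 1.93 to 2.34.

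The summed level of the 11 pan-reactive genes was 1283 to 1409 CPM in D2C7-IT tumours at day 0, against 81.2 to 295 in vehicle, 160.2 to 654 in aCD40 and 170.1 to 762 in combination tumours, with no overlap. Against D2C7-IT alone, the combination had 11 of 11 lower with a median of -1.41, 0 called by edgeR and 6 at an unadjusted p under 0.05 (2.77% of all genes). The departure from additivity was negative for 11 of 11, with a median of -2.38, 0 called and 6 at an unadjusted p under 0.05 (1.62% of all genes). It was -4.88 ± 1.34 for Steap4, -2.01 ± 0.54 for Osmr, -2.95 ± 0.82 for Cp and -3.87 ± 1.40 for Lcn2, each with adjusted p = 1 in edgeR. At day 3 the list summed to 533 to 1223 CPM with D2C7-IT and 529.7 to 1200.2 with the combination, against 175 to 815 with vehicle and 161 to 1096 with aCD40, and the 3 high-Egfr libraries of the last pair of groups held 776 to 1096. In those 3 libraries the 20 further astrocyte genes summed to 1273 to 2113 CPM, against 2660.4 to 5175 in the other 21.

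The A1-type and A2-type lists had 0 genes called by edgeR in D2C7-IT against vehicle at day 0, with 2 of 11 and 2 of 12 at an unadjusted p under 0.05, all higher (3.61% of all genes higher). Of the A2-type genes, Ptx3, a secreted pentraxin, was at 76.3 ± 11.7 against 1.02 ± 0.921 CPM (6.19 ± 1.42, adjusted p = 0.16) and Tgm1, a transglutaminase, at 81.6 ± 8.72 against 3.53 ± 2.62 CPM (4.51 ± 1.20, adjusted p = 0.31). The A1-type genes were all higher, with a median of 0.51, led by Srgn (1.39 ± 0.56) and Serping1 (0.85 ± 0.40). The 20 further astrocyte genes, homeostatic like the 30, were 6 higher and 14 lower with a median of -0.29 and 0 called. Dio2, which activates thyroid hormone, differed by -1.35 ± 0.63 (adjusted p = 1), and Grin2c, a glutamate receptor subunit, was at 39.2 ± 3.84 against 82.4 ± 10.0 CPM (-1.07 ± 0.62, adjusted p = 1). In the 3 high-Egfr libraries the A1-type list, which holds class I and interferon genes of many cell types, summed to 3042 to 4635 CPM against 281 to 1726 in the others.

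Across the 21 tumours with low Egfr, Gfap was compared with the other 31 genes on the log2 CPM scale. It varied most closely with Aqp4 (Pearson r = 0.88, Spearman rho = 0.83, permutation p = 1e-05 and 2e-05, adjusted over the 31 correlations 0.00015 and 0.00062) and Vim (r = 0.82, rho = 0.76, p = 1e-05 and 0.00015, adjusted 0.00015 and 0.0014), where 1e-05 is the smallest p that 100000 permutations can give. Clu (r = 0.73, rho = 0.74), Sox9 (0.68 and 0.74) and Aldh1l1 (0.65 and 0.68) followed, with permutation p of 0.00015 to 0.0017 and adjusted p of 0.0014 to 0.0087. Without the 2 tumours farthest from the median of Gfap, r was 0.88 for Aqp4 and 0.76 for Vim, and within groups it was 0.79 and 0.83. Of the 30 homeostatic genes these 4 and Kcnj10 (0.53 and 0.55, adjusted p = 0.034 and 0.028) varied in the same direction as Gfap at an adjusted p under 0.05.

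The opposite end was held by Slc1a2 (r = -0.67, rho = -0.72, permutation p = 0.00092 and 0.00043, adjusted 0.0057 and 0.0027), Glul (-0.59 and -0.67), Htra1 (-0.59 and -0.54), Cbs (-0.58 and -0.58), Cxcl14 (-0.57 and -0.63) and Bcan (-0.52 and -0.56), the 6 genes of negative correlation at an adjusted p under 0.05 on both measures. Within groups these were weaker: r was -0.42 for Slc1a2, -0.05 for Glul, -0.18 for Htra1, -0.28 for Cbs, -0.29 for Cxcl14 and -0.20 for Bcan. Gfap also varied with the mean log2 level of the pan-reactive list (r = 0.84, rho = 0.80, permutation p = 1e-05 and 4e-05, adjusted over 15 lists 0.00015 and 0.0003, and r = 0.81 within groups), the cell cycle list (0.77 and 0.71, adjusted p = 0.00034 and 0.0015, and 0.87 within groups) and the monocyte and macrophage list (0.75 and 0.73, adjusted p = 0.00034 and 0.0015, and 0.80 within groups). Other lists had an adjusted p under 0.05 on both measures too. They were A2-type (r = 0.78, rho = 0.81), microglia (0.70 and 0.61), T cell (0.64 and 0.55), pericyte and fibroblast (0.60 and 0.63) and A1-type (0.54 and 0.52). The neuronal list did so with negative values (-0.48 and -0.54). Egfr itself gave 0.53 and 0.58 (adjusted p = 0.024 and 0.015, and 0.61 within groups). At day 0 the tumour of highest Egfr had the highest Gfap, Vim and Aqp4 of its group with vehicle (replicate 1, 50.8 CPM of Egfr) and with aCD40 (replicate 3, 44.6 CPM), and the highest Gfap and Vim with the combination (replicate 2, 23.7 CPM). With D2C7-IT it had the lowest Gfap and Aqp4 of its group (replicate 2, 46.7 CPM). How much the share of tumour or immune cells in a sample bears on Gfap was not tested, and all of these points share the same libraries.

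Agt, which astrocytes make in some brain regions far more than in others, had the widest range of the 32 genes. At day 0 its levels were 4.12, 73.2 and 5.69 CPM in vehicle, 43.6, 103 and 25.9 in aCD40, 97.3, 9.29 and 4.91 in D2C7-IT and 20.8, 24.6 and 155 in combination tumours. At day 3 they were 58.3, 1.26 and 15.7, then 0.739, 92.6 and 94.8, then 2.93, 6.62 and 35.5, then 166, 30.4 and 83.1 CPM in the same order of treatments. Within a group the highest tumour exceeded the lowest several-fold. The fold between highest and lowest was 56.6 in the 21 libraries, against a median of 2.74 over the homeostatic genes.

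The genes most like Agt across the 21 tumours were Itih3 (r = 0.91, rho = 0.96, permutation p = 1e-05 for both, adjusted 0.00019 and 7.6e-05), and Slc6a11 (0.90 and 0.93, with the same p-values), with r of 0.96 and 0.91 within groups. Another 5 had rho above 0.6, namely Ntsr2 (0.79), Slc4a4 (0.76), Kcnj16 (0.71), S100b (0.66) and Slc7a10 (0.65). Gfap was not (r = -0.06, rho = -0.02, p = 0.78 and 0.92). For comparison, 7 hypothalamic neuropeptide genes were chosen after the data were seen. Avp, which encodes vasopressin, ran from 0.274 to 259 CPM in these tumours and varied with Agt at r = 0.90 and rho = 0.92 (permutation p = 2e-05 and 1e-05, adjusted over 38 correlations 0.00025 and 7.6e-05, and r = 0.95 within groups), and Oxt, for oxytocin, at 0.83 and 0.86 (adjusted p = 0.00038 and 7.6e-05). The other 5 gave r and rho of 0.80 and 0.87 for Pmch, 0.79 and 0.78 for Hcrt, 0.76 and 0.73 for Ghrh, 0.61 and 0.73 for Agrp and 0.45 and 0.48 for Pomc, of which Pomc did not pass (adjusted p = 0.076 and 0.057). Without the 2 tumours farthest from the median of Agt, r for Avp was 0.90. Slc1a3, in contrast, held 352 to 783 CPM over the same tumours. The part that the sampled brain region has in the treatment comparisons of Agt and the genes that vary with it was not tested.

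**Figure D5:**
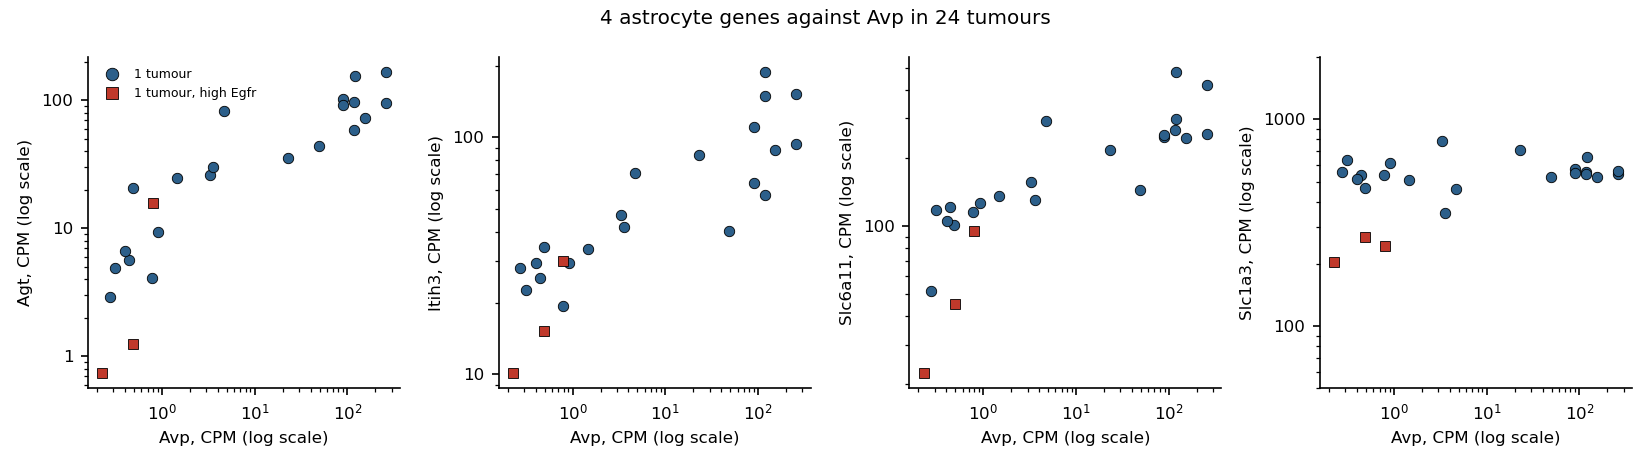
Agt, Itih3, Slc6a11 and Slc1a3 against Avp, the vasopressin gene, in the 24 tumours (CPM, both axes log scale), with the 3 high-Egfr libraries as squares. The first 3 genes climb with Avp, which spans 0.227 to 259 CPM, and Slc1a3 stays level outside the squares.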

How the data were processed

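Polyadenylated RNA of 24 flash-frozen, unsorted tumours was sequenced after NEBNext Ultra preparation, which does not mark strand, per the labels' protocols. The authors deposited raw counts per Ensembl gene as whole numbers. Tools listed, per the submitters' processing notes, are featureCounts (Subread 1.5.2), STAR 2.5.2b, Trimmomatic 0.36 and bcl2fastq 2.17, with build GRCm38. Annotation release and strandedness were not given in the sources used here. Reads of overlapping genes on opposite strands cannot be told apart. The 6 tables hold 36 columns, of which 12 repeat another, and 0 of these differ from it. Columns were joined by tumour number, and GENCODE M21 named 49056 of 49315 identifiers and gave exon lengths. Promoters came from RefSeq.

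Counts were fitted with edgeR 4.0.16 in R 4.3.3: filterByExpr left 22280 genes, TMM scaled the libraries, a model with 1 mean for each group used all 24 libraries (quasi-likelihood test, 16 residual degrees of freedom, common coefficient of variation 0.41), and p-values were adjusted by Benjamini-Hochberg over all 22280 genes, with calls under 0.05. There were 19 comparisons. DESeq2 1.42.0 was an alternative. A single gene's p rests on the spread pooled over all groups. The labels name each tumour as a separate sample, and p-values measure only the spread between these tumours. Replicates differed by more than sampling noise (chi-square per degree of freedom of at least 31.21). Correlations used log2 CPM computed from the deposited counts, two-sided permutation tests of 100000 draws and Benjamini-Hochberg adjustment within each set of correlations. Their p-values belong to r and rho over tumours of all groups together, which include differences between groups. Values of r within groups were not tested.

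Named genes were Gfap, Vim, the 3 genes of highest and the 3 of lowest log2 difference in a comparison, and up to 4 of smallest p from each other list. Others, such as those past an unadjusted p of 0.05, those whose groups do not overlap, and the genes given per tumour, were chosen after their values were seen. The 32 genes, the lists and the tests were chosen with earlier results of these data known.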

Additional observations from a re-analysis of the deposited data

How the results depend on the processing

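The count of the 32 genes called was recomputed under 268 alternatives over the 19 comparisons, and 260 gave the 0 of the edgeR fit. DESeq2 called 3 for D2C7-IT against vehicle at day 3, 2 for the combination against vehicle at day 3 and 4 for vehicle at day 3 against day 0. Leaving out 1 replicate gave 0 to 2 for aCD40 against vehicle at day 3, 0 to 9 for D2C7-IT against vehicle at day 3, 0 to 8 for the combination against vehicle at day 3, 0 to 13 for vehicle at day 3 against day 0 and 0 to 4 for the change of the D2C7-IT effect between days. The highest values came without vehicle day 3 replicate 1, the vehicle tumour of low Egfr, and for aCD40 without replicate 1, its tumour of high Egfr. Without the 3 high-Egfr libraries, a setting added after seeing the data, edgeR called 0. The other scalings, no filter on low counts and only the groups compared also gave 0. The median of the homeostatic genes moved by at least 0.2 in 55 of 268 alternatives. For D2C7-IT against vehicle at day 0 it stayed between -0.38 and -0.06, and Gfap between 0.81 and 1.43. The replicate numbers do not pair the tumours: of 28 pairs of groups, 4 had every correlation of same-numbered tumours over 0.1, with a median of -0.02. With the replicate block 0 of the 32 genes were called in every comparison, and of the pan-reactive genes Steap4 kept its call (adjusted p = 0.038) while Osmr lost it (0.076). The lowest count of any of the 32 genes was 26, and the effect of depth on the calls was not tested.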
